A study of Homo sapiens with 14 samples.

Results

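TNNT2- cells recovered from 3D cardiac cultures were compared with TNNT2- cells from 2D cultures by the abundance of the knockout guides they carried. These 6 libraries, 3 from each system, were chosen by their labels from the 14 libraries of the series, and all 11364 guides were counted in each of them. All were made from H9, an established human pluripotent stem cell line whose genotype is labelled WT, with a Cas9 that doxycycline switches on and a pool of guides that cut transcription factor genes. Cardiomyocyte differentiation followed separate published protocols for 2D and for 3D, and at day 25 the cells were sorted on cardiac troponin T into TNNT2+ and TNNT2- fractions. The remaining libraries were the TNNT2+ fractions of the same cultures (3 from each system) and undifferentiated cells at day 0 (2 libraries). The library held 100 control guides and guides against 1633 target names, of which 1574 had 7 guides. The labels describe 3 differentiations as biological replicates, all of 1 cell line, and give neither the dose nor the timing of doxycycline. The files hold guide counts from genomic DNA and no expression, so the TNNT2- label and the loss of each target protein could not be checked.

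Troponin T is a structural protein of the cardiac contractile apparatus, and cells without it after cardiac differentiation include stromal, epicardial, endothelial, endodermal and incompletely differentiated cells. A guide that becomes more abundant in this fraction marks cells that survived, divided or were sorted there more often than the other cells, and these routes cannot be told apart by guide counts. Cardiac differentiation passes through mesendoderm and cardiac mesoderm, which depend on NODAL, WNT and BMP signals and on the transcription factors that those signals act through.

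Guides were lost from 3D replicates 2 and 3 and not from 3D replicate 1, so the replicates of 3D differed from each other. Each of the 6 libraries held between 22355936 and 31671019 reads. In 2D TNNT2- replicates 1, 2 and 3, the share of guides with fewer than 10 reads was 1.21%, 0.924% and 0.502%. In 3D TNNT2- replicates it was 0.739%, 11.1% and 27.6%. The first 3D library therefore lay within the 2D range, and replicates 2 and 3, called the thin libraries here, lay far above it. The groups did not differ in this share beyond the spread between libraries, at 13.1 ± 13.6% (SD, n = 3) in 3D and 0.88 ± 0.358% (SD, n = 3) in 2D (exact permutation test, 2-sided, p = 0.3). Controls were lost less often, with fewer than 10 reads for 0%, 2% and 17% of control guides in the 3D replicates, against 0% to 1% in 2D. The Gini index, which is 0 when all guides are equally abundant and nears 1 when few guides hold all reads, was 0.504 ± 0.127 (SD, n = 3) in 3D and 0.356 ± 0.0127 (SD, n = 3) in 2D. The exact permutation test (2-sided) gave p = 0.1 (adjusted over 3 measures 0.15), the smallest p that 3 libraries against 3 allow. The 3 libraries of 3D had indices of 0.367, 0.525 and 0.619 and the 2D libraries 0.367, 0.359 and 0.342, so the first 3D library matched the highest 2D library to 3 digits and lay just above it in the further digits. Of the guides under 10 reads, 668 were shared by both thin libraries, which is 53.1% of the 1258 in replicate 2 and 21.3% of the 3138 in replicate 3. Replicate 2 shared as many with the second day 0 library (669, 53.2%) and more with 3D TNNT2+ replicate 3 (802, 63.8%), both of which had also lost many guides. Within a gene the guides also scattered more there, with a median SD over guides of 2.49 and 3.23 log2(CPM + 1) in the thin libraries and 0.898 to 1.0 in the other 4.

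**Figure D1:**
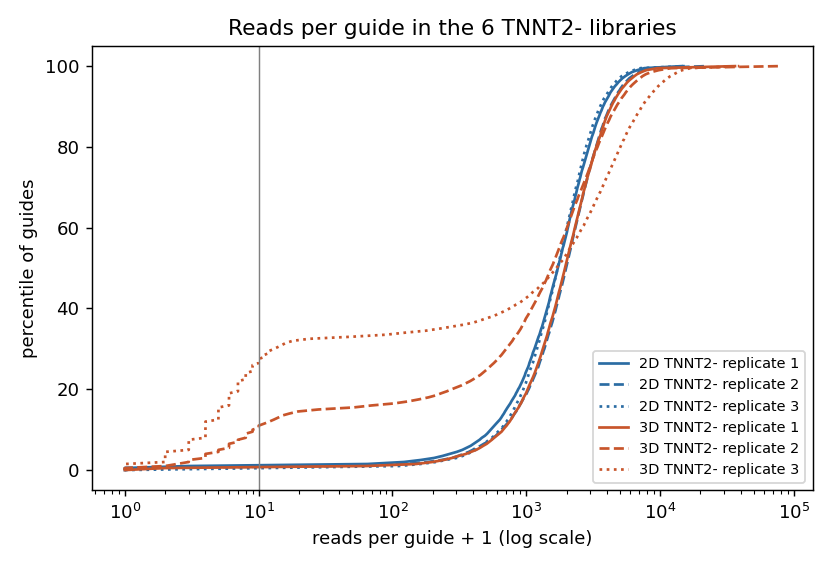
Cumulative distribution of reads per guide (x axis, reads + 1 on a log scale; y axis, percentile of the 11364 guides) in each of the 6 TNNT2- libraries; the grey line marks 10. The curves of 3D replicates 2 and 3 leave the others at the low end, with 11.1% and 27.6% of guides under 10 reads.

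No targeted gene differed between 3D and 2D TNNT2- cells when each gene was given the mean of its guides. This value was the mean of log2(scaled reads + 10) over the guides of a gene in each library, tested with limma over 1621 genes at a Benjamini-Hochberg adjusted p of 0.05. There were 0 calls in either direction (0% of genes tested), with 6 genes higher (0.37%) and 88 lower (5.43%) in 3D at an unadjusted p under 0.05. The median gene lay at -0.59 in this fit, so the zero point itself had moved, and differences are given below relative to that median unless stated. The SE and p-values printed with them belong to the difference before centring, except where a centred fit is named. Scaled to the library total, to TMM factors or to control guides the median lay at -0.97, -0.71 and -0.87. The smallest adjusted p was 0.0973. With the reads of all guides of a gene summed before the logarithm, it lay at 0.36, and 2 genes were called higher (ARHGAP35 and CAMTA2, 0.123% of genes) and 0 lower (0%), with 163 higher (10.1%) and 5 lower (0.308%) at an unadjusted p under 0.05. This split depended on scaling. It became 52 and 51 with summed reads scaled to the library total, and 51 and 27 for means of guides once each library was centred on its median gene. On summed reads edgeR's quasi-likelihood test called 0 genes, with 79 higher and 23 lower at an unadjusted p under 0.05. DESeq2 called 13 higher and 3 lower. The lower calls of DESeq2 were FOXH1, FOXA2 and EOMES. Both gene summaries are therefore given below. A mean of guides counts every lost guide in full, and a sum follows the guides with most reads.

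The 100 control guides lay at 10.48 log2 scaled reads in 3D and 10.71 in 2D, a difference of -0.24 (exact permutation test, 2-sided, p = 0.5). The guides with a target differed by -0.63 over the same libraries. In the library with most losses, 3D replicate 3, control guides stood at 10.002 and targeting guides at 9.01. In 3D replicate 1 these were 10.83 and 10.30, near the 2D values of 10.69 to 10.74 and 10.26 to 10.33.

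FOXH1 led the genes with fewer guides in 3D TNNT2- cells. FOXH1 is a forkhead factor that binds SMAD2 and carries NODAL signals to mesendoderm genes. Its 7 guides summed to 1618, 1553 and 1425 CPM (reads scaled to a common library total) in 2D replicates 1, 2 and 3, and to 623, 384 and 649 in 3D. The groups did not overlap on either summary, and the lowest 2D library held more than every 3D library. All 7 guides had a lower mean in 3D, and 4 of them did not overlap between the systems on scaled reads. Guide directions here and below are counted before centring, and the median guide of the whole library itself lay at -0.30. FOXH1 and NFYB were the 2 genes of 1621 (0.123%) with at least 4 guides lower without overlap. For single guides over the whole library, 5.54% were lower and 6.86% higher without overlap. FOXH1_2 had 241, 254 and 177 CPM in 2D and 100.4, 96.9 and 97.8 in 3D, so no library had lost it. FOXH1_6, its most abundant guide, had 420.4, 657 and 445 CPM in 2D and 226, 51.2 and 236 in 3D. Without FOXH1_6 the gene's sum was still 1024 ± 156 CPM (SD, n = 3) in 2D and 381 ± 42.1 CPM (SD, n = 3) in 3D.

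The FOXH1 difference was -1.94 log2 units (SE 0.34), or -1.35 relative to the median gene, and did not pass (limma, unadjusted p = 6.0e-05, adjusted p = 0.0973). It passed with the library total as scale (adjusted p = 0.0196), with control guide scaling (0.0298), with array weights and without 3D replicate 3 (limma, adjusted p = 0.00551). With the library total and with control guide scaling, the median gene lay at -0.97 and -0.87, and FOXH1 at -1.37 and -1.36 relative to it. In a fit without both thin libraries, where the 1 remaining 3D library is assumed to vary like the others, FOXH1 lay at -1.62 relative to the median gene. It did not pass without any 1 of the 2D libraries (limma, adjusted p of 0.773 to 0.853). It also did not pass without 3D replicate 1 (limma, 0.0775) or 2 (limma, 0.118), or with edgeR on summed reads (adjusted p = 0.0516). Centred on the median gene, it did not pass by means of guides (limma, adjusted p = 0.753) and passed by summed reads. Over 25 alternatives its relative value stayed between -1.62 and -1.19 and its adjusted p ran from 2.4e-09 to 0.922, by the tool of each alternative. The difference between systems was also present in the TNNT2+ fraction, at 905, 1246 and 1699.5 CPM in 2D against 770.5, 645 and 666 in 3D. Undifferentiated cells had 974 and 368 CPM, of which the second is a library with 32.5% of guides under 10 reads. The 2D TNNT2- libraries thus stood above both day 0 libraries, and the 3D libraries lay between them.

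FOXA2 and EOMES were, with FOXH1 and NFYB, among the 10 genes with the smallest p on the lower side, and neither passed. FOXA2 is a pioneer factor of endoderm and its derivatives. Its guides summed to 905, 851 and 781 CPM in 2D and to 410.0, 231 and 503 in 3D, and these CPM did not overlap. The relative difference was -1.88 (limma, adjusted p = 0.527), with 5 of 7 guides lower. FOXA2_1 alone supplied 40.6% of the 3D reads of the gene and 20.1% of the 2D reads, and 3 of the 7 guides were under 10 reads in 3D replicate 3. In the fit without the thin libraries, where 1 3D library remained, the relative value was -0.97 by means of guides. EOMES, a T-box factor required for mesendoderm and the first cardiac mesoderm, summed to 562, 557 and 855 CPM in 2D and to 409, 248 and 211 in 3D. All 7 of its guides had a lower mean in 3D, yet none of them separated the groups on scaled reads. EOMES_1 had 129 CPM in 3D replicate 1, above all 3 libraries of 2D (102, 115 and 126), and 18.6 and 0.158 in the thin libraries. In replicate 3, 5 of the 7 guides were under 10 reads. Its relative difference was -1.89 (limma, adjusted p = 0.527) and -0.76 without the thin libraries. FOXC1, a forkhead factor of cardiac and second heart field mesoderm, summed to 638, 543 and 529 CPM in 2D and to 424, 331 and 65.0 in 3D. The lowest library was replicate 3, and its relative difference of -2.005 was -0.31 without the thin libraries. FOXC1 ranked 42 by unadjusted p over both directions, and is named for the size of its value among genes without overlap, as are EOMES and ZNF76, the latter at -1.99.

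Other leading genes on the lower side included NFYB, a subunit of the CCAAT-binding factor that many dividing cells require. NFYB summed to 687, 670.0 and 731 CPM in 2D and to 537, 135 and 344 in 3D, with 7 of 7 guides lower, 4 of them without overlap. Its relative difference of -1.58 (limma, adjusted p = 0.527) was -0.37 without the thin libraries. SOX5, CREB3L1 and ZSCAN10 had relative differences of -1.35, -1.06 and -0.98, and NR2C2, DACH1 and ZNF888 of -0.67, -0.67 and -0.44, all at an adjusted p of 0.527 in the limma fit. On summed reads 5 of these 6, all but CREB3L1, differed by 0.14 or less before centring, where the median gene stood at 0.36. SOX5 stood at 714, 645 and 746 CPM in 2D and at 562, 589 and 561 in 3D, and these CPM did not overlap. Without the thin libraries the relative values of SOX5, CREB3L1 and ZSCAN10 were -0.49, -0.33 and -0.41, and that of ZNF888 was -1.02.

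**Figure D2:**
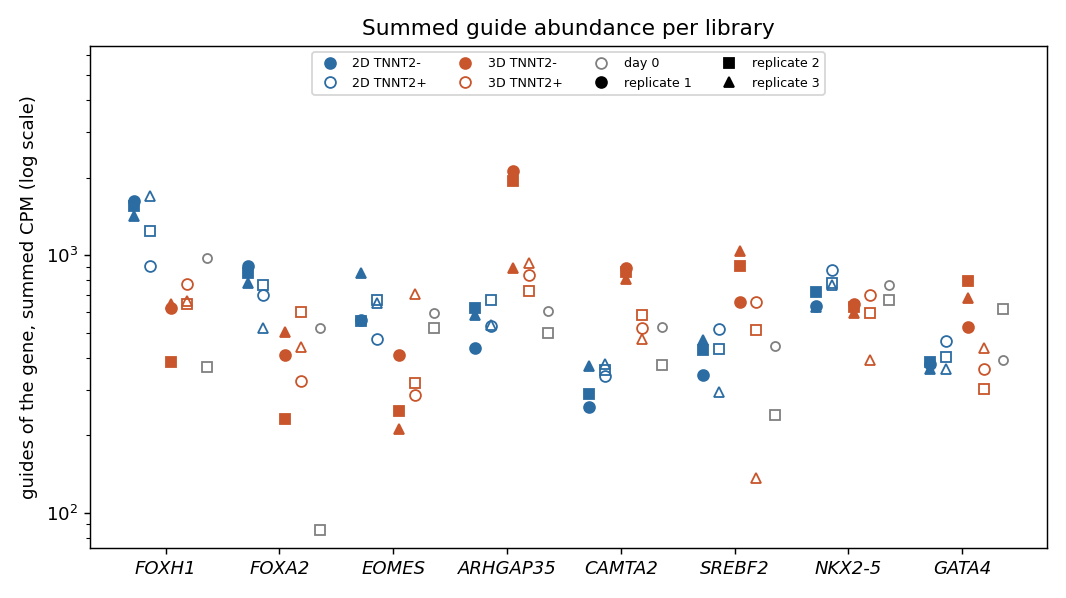
CPM summed over the guides of 8 genes (y axis, log scale) in every library: filled symbols TNNT2-, open symbols TNNT2+, blue 2D, orange 3D, grey day 0, symbol shape the replicate. FOXH1, FOXA2 and EOMES lie lower in all 3 3D TNNT2- libraries than in the 2D ones, ARHGAP35, CAMTA2, SREBF2 and GATA4 lie higher in all 3, and NKX2-5 overlaps.

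ARHGAP35 led the genes with more guides in 3D TNNT2- cells. It encodes p190A RhoGAP, which turns off the small GTPase RHOA at sites of cell adhesion, and is in the library under its older role as a DNA-binding factor. It lies on chromosome 19 from 46860997 to 47005077 (GRCh38.p14). Its 7 guides summed to 434, 623 and 588 CPM in 2D and to 2121, 1943 and 892 in 3D, so even the lowest 3D library was above the highest 2D one. The mean was 549 ± 100.4 CPM (SD, n = 3) in 2D and 1652 ± 664 CPM (SD, n = 3) in 3D. On summed reads the difference was 1.92 log2 units (SE 0.32, limma adjusted p = 0.0193), or 1.56 relative to the median gene. The mean over guides differed by 1.40 (SE 0.54, limma adjusted p = 0.527), or 1.99 relative to the median gene. That mean overlapped, because ARHGAP35_3 and ARHGAP35_6 were under 10 reads in 3D replicate 3.

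Several guides carried the ARHGAP35 difference. ARHGAP35_5 had 66.3, 74.4 and 117 CPM in 2D and 412, 389 and 269 in 3D. ARHGAP35_1 had 64.1, 83.8 and 44.7 CPM in 2D and 246, 236 and 189 in 3D. ARHGAP35_2 had 17.3, 95.7 and 78.6 CPM in 2D and 512, 216 and 229.8 in 3D. These and ARHGAP35_4 were higher in every 3D library than in every 2D library, and ARHGAP35 was the only one of 1621 genes (0.0617%) with at least 4 such guides. Its most abundant guide, ARHGAP35_4, held 26.5% of the gene's 3D reads and 27.9% of its 2D reads. Without it the sum was 396 ± 79.7 CPM (SD, n = 3) in 2D and 1215 ± 435 CPM (SD, n = 3) in 3D.

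Without both thin libraries, where 1 3D library remained, the summed ARHGAP35 difference was 1.99 log2 units before centring. The summed difference passed without 3D replicate 1 (limma, adjusted p = 0.0447) and without 3D replicate 3 (limma, 4.18e-05). It did not pass without any 1 of the 2D libraries or without 3D replicate 2 (limma, adjusted p from 0.126 to 0.552), nor when centred on the median gene (limma, 0.0876), scaled to the library total (limma, 0.105) or tested with edgeR (adjusted p = 0.0582). By means of guides it passed without 3D replicate 3 and with array weights, and its relative value was 1.99 without both thin libraries. In the TNNT2+ fraction the gene stood at 533, 671 and 537 CPM in 2D and at 838, 726 and 933 in 3D, and at day 0 at 608 and 500.0. The 3D TNNT2+ libraries were thus also above the 2D ones, by less. The highest, replicate 3, had 43.6% of guides under 10 reads. There ARHGAP35_1 and ARHGAP35_2 had 1 and 3 reads, and ARHGAP35_3 had 260 CPM. In 3D TNNT2+ replicates 1 and 2, ARHGAP35_1 and ARHGAP35_2 were above every 2D TNNT2+ library. ARHGAP35_5 overlapped in this fraction, at 123, 98.9 and 91.1 CPM in 2D and 78.0, 148 and 116 in 3D.

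CAMTA2, GLI3 and NR6A1 led on summed reads beside ARHGAP35, and they were singled out after their values were seen. CAMTA2 is a calmodulin-binding coactivator that works with NKX2-5 in cardiac growth. Its guides summed to 258, 289 and 369.9 CPM in 2D and to 891, 864 and 806 in 3D, without overlap and with little spread. The summed difference was 1.55 relative to the median gene and 1.90 before centring (SE 0.32, limma adjusted p = 0.0193). By the mean of guides it was 0.90 relative and 0.31 before centring (SE 0.70, limma adjusted p = 0.811), and only 4 of 7 guides were higher. CAMTA2_3 held 42.7% of the 3D reads and 17.1% of the 2D reads, with 29.9, 66.0 and 60.8 CPM in 2D and 439.7, 587 and 67.1 in 3D. CAMTA2_1 stood at 107, 135 and 439.7 CPM in 3D, so that replicate 3 owed its sum to other guides than replicates 1 and 2. Without CAMTA2_3 the sums were 253 ± 48.4 CPM (SD, n = 3) in 2D and 489 ± 233 CPM (SD, n = 3) in 3D. Without the thin libraries, where 1 3D library remained, the summed CAMTA2 difference was 1.58 before centring. The summed CAMTA2 call was kept when centred on the median gene (limma, adjusted p = 0.0415). It was lost without any 1 of the 2D libraries or 3D replicate 2 (0.0713 to 0.552, limma), with the library total as scale (0.053) and with edgeR (0.0516).

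GLI3, a transducer of Hedgehog signals, summed to 409, 507 and 486 CPM in 2D and to 989, 1012 and 1002 in 3D. Its 3 3D libraries were nearly equal and all above the 2D ones, and the summed difference of 1.16 relative to the median gene (SE 0.32) did not pass (limma, adjusted p = 0.123). GLI3_5 held 42.3% of the 3D reads and 26.8% of the 2D reads, and 3 guides of GLI3 were under 10 reads in 3D replicate 3. Without GLI3_5 the sums were 342 ± 30.7 CPM (SD, n = 3) in 2D and 578 ± 155 CPM (SD, n = 3) in 3D, where they ran from 414 to 722. NR6A1, an orphan nuclear receptor of early embryos, summed to 1288, 999.8 and 833 CPM in 2D and to 2134, 2725 and 1784 in 3D, and the summed difference of 1.14 relative to the median gene did not pass (limma, adjusted p = 0.123). For NR6A1, 1 guide, NR6A1_7, held 65.6% of the 3D reads, and without it the sums were 669.5 ± 196 CPM (SD, n = 3) in 2D and 761 ± 158 CPM (SD, n = 3) in 3D.

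**Figure D3:**
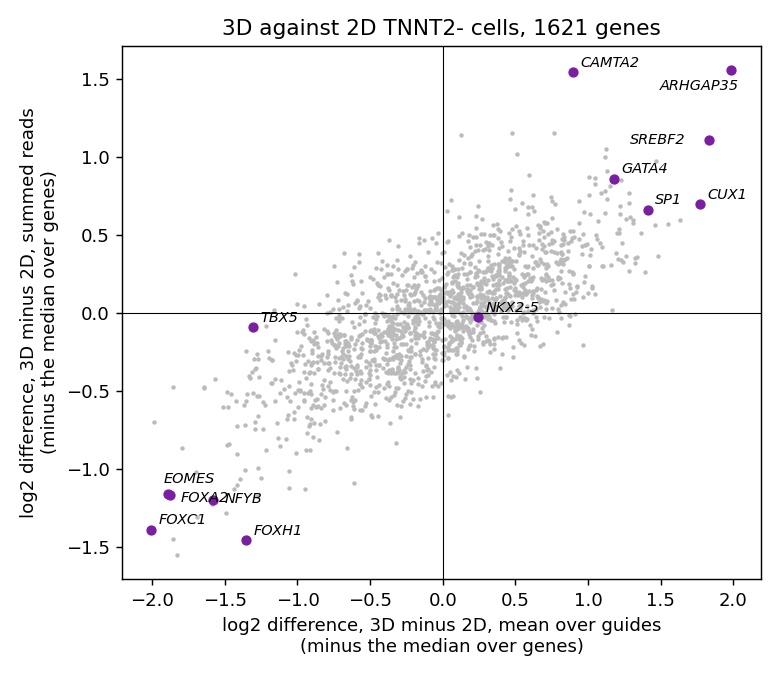
Log2 difference of 3D from 2D TNNT2- cells for 1621 genes, by the mean over guides (x axis) and by summed reads (y axis), each minus its median over genes. ARHGAP35 is at 1.99 and 1.56, FOXH1 at -1.35 and -1.46; both summaries share the same libraries.

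By the mean of guides, the other leading genes on the higher side were SREBF2, CUX1, ZSCAN4, L3MBTL1, ZNF425, SP1, SOX11, ZNF138 and ZNF77. Their relative differences lay between 1.21 and 1.83, and the differences before centring had an adjusted p of 0.527 each (limma). SREBF2, the master regulator of cholesterol synthesis, summed to 343, 429 and 469.9 CPM in 2D and to 659.5, 908 and 1042 in 3D, without overlap, and 6 of its 7 guides were higher. SREBF2_7 had 66.7, 99.2 and 103 CPM in 2D and 222, 171 and 147 in 3D. SREBF2_3 stood at 98.7, 18.7 and 462 CPM in 3D and at 0.088 in 2D replicate 1, so that guides of this gene differed among libraries in both systems. SREBF2 passed with DESeq2 on summed reads (adjusted p = 0.00887) and not with edgeR (0.238). Its relative value was 1.04 without the thin libraries. SP1, a widely used promoter factor, stood at 734, 731 and 682 CPM in 2D and at 841, 1112 and 1397 in 3D, and ZSCAN4, a telomere regulator of early embryos, at 669.9, 664 and 735 against 748, 891 and 1449. Both were thus highest in 3D replicate 3. Without the thin libraries their relative values were 0.30 and 0.35, and those of SOX11, ZNF425 and ZNF138 were 0.05, 0.10 and 0.25.

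**Figure D4:**
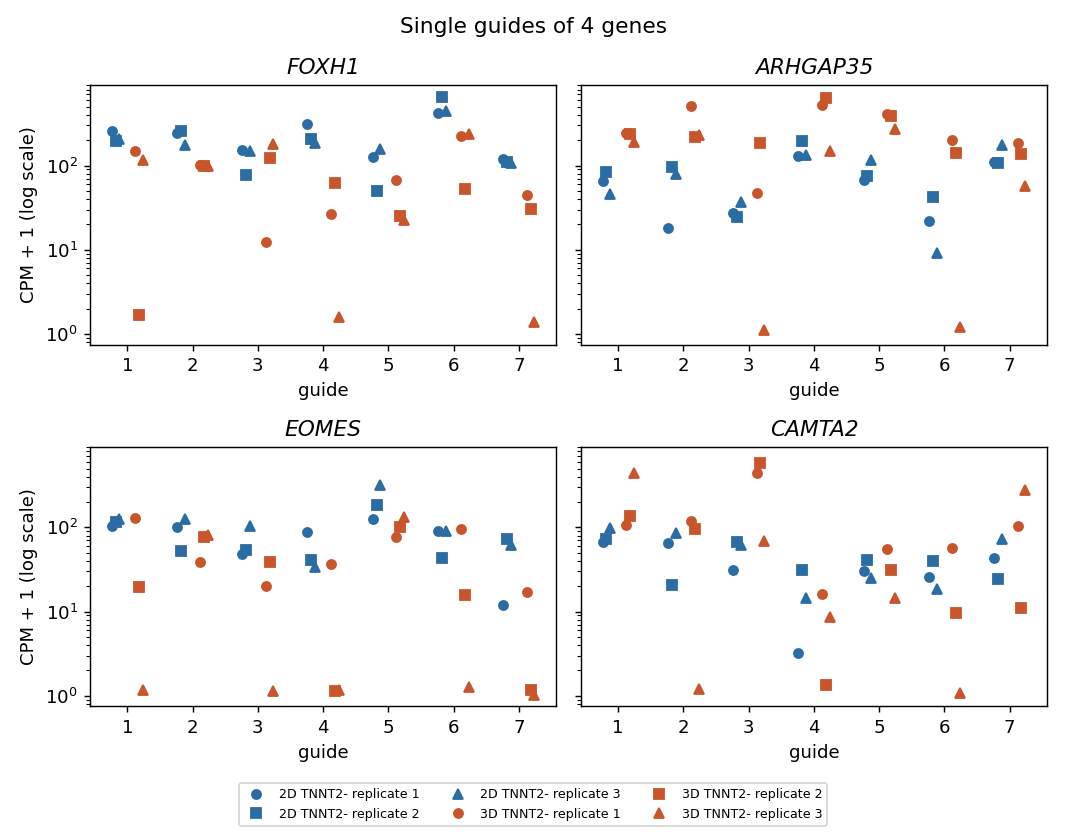
CPM + 1 (y axis, log scale) of each of the 7 guides (x axis) of FOXH1, ARHGAP35, EOMES and CAMTA2 in the 6 TNNT2- libraries. On scaled reads 4 guides of FOXH1 lie lower and 4 of ARHGAP35 higher in all 3D libraries, FOXH1_3 and FOXH1_5 overlap, most low EOMES points are 3D replicate 3, and CAMTA2_3 and CAMTA2_1 stand out in different 3D replicates.

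Of 11339 single guides, 2 passed as higher in 3D (0.0176%) and 0 as lower (0%), with 356 (3.14%) and 94 (0.829%) at an unadjusted p under 0.05 by limma. E2F2_6, against an activator of S phase genes, had 22.6, 42.1 and 41.8 CPM in 2D and 701, 241 and 409.8 in 3D. Before centring it differed by 3.97 log2 units (SE 0.59, limma adjusted p = 0.0463). FOXR2_5, against a forkhead factor that stabilises MYC, had 32.4, 25.7 and 44.8 CPM in 2D and 491, 1453 and 174 in 3D (4.28, SE 0.66, limma adjusted p = 0.0463). Both were higher in all 3 libraries of 3D by at least several-fold. In the TNNT2+ fraction FOXR2_5 was also higher without overlap, at 5.67, 15.1 and 37.5 CPM in 2D and 97.1, 218 and 211 in 3D. E2F2_6 overlapped there, at 46.7, 42.4 and 76.2 CPM in 2D and 55.8, 67.0 and 302 in 3D. Among the other guides of both genes, E2F2_3 was also higher in every 3D library, with 119, 139 and 165 CPM in 2D and 181, 429 and 181 in 3D, and did not pass (limma, adjusted p = 0.753). Without E2F2_6 the E2F2 guides summed to 684 ± 59.0 CPM (SD, n = 3) in 2D and 719.5 ± 95.1 CPM (SD, n = 3) in 3D, and without FOXR2_5 the FOXR2 guides to 558 ± 80.3 and 582 ± 83.4 CPM (SD, n = 3 each). Neither guide passed with edgeR (adjusted p of 0.878 or more), with limma on reads scaled to the library total, to TMM factors or to control guides (adjusted p from 0.0865 to 0.298), or without both thin libraries, and both passed with DESeq2, which called 52 guides higher and 0 lower. Without 3D replicate 1 neither passed (0.0632 each, limma), without 3D replicate 2 FOXR2_5 did not (0.364) and without 3D replicate 3 E2F2_6 did not (0.0554).

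ELK4_2 and ARHGAP35_5 were among the guides that followed on the higher side, with an adjusted p of 0.213 each by limma. ELK4_2, against a cofactor of serum response factor, had 745, 132 and 281 CPM in 3D and at most 54.1 in 2D. On the lower side ZNF732_4, RAX2_5, MGA_6, HOXD11_1 and ZNF217_2 had between 3.58 and 38.8 CPM in 2D and at most 0.0844 CPM in 3D, all at an adjusted p of 0.753 in the limma fit. RAX2_5 had no read in any 3D TNNT2- library, against 20.9, 38.8 and 18.1 CPM in 2D. These guides were rare in 2D as well, and 4 of the 5 had no read in day 0 replicate 2. Among the 114 most abundant guides of each library, 26 were common to the 3 libraries of 2D, 10 to those of 3D and 6 to all, namely FOXO1_1, NR5A2_5, NR6A1_7, TCF4_1, ZNF213_7 and ZNF559_4.

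The cardiac regulators did not pass in either direction. NKX2-5, an early cardiac homeobox factor, summed to 636, 721 and 629 CPM in 2D and to 649, 631 and 597 in 3D, and the groups overlapped (relative difference 0.25 by the mean of guides and -0.03 by summed reads). GATA4, a zinc finger factor of the heart and of endoderm, summed to 377, 385 and 363 CPM in 2D and to 527, 795 and 683 in 3D without overlap. Its relative difference was 1.18 (limma, adjusted p = 0.571), and 0.30 without the thin libraries. TBX5, a T-box factor of the left ventricle and atria, differed between the summaries. Its sums overlapped, with 779, 823 and 718 CPM in 2D and 643, 899 and 592 in 3D, while the mean of guides lay at -1.31 (limma, adjusted p = 0.527). A single guide, TBX5_6, held 71.8% of its 3D reads and 42.6% of its 2D reads, and 4 of the 7 were under 10 reads in 3D replicate 3. MEF2C, HAND2 and HAND1 had relative differences of 1.31, -0.47 and -0.14, and ISL1, the second heart field factor, of 0.29. The values of HAND1 and ISL1 changed sign under some alternatives.

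Regulators of the cell types that the TNNT2- fraction can hold did not pass either. WT1, TBX18 and TCF21, factors of the epicardium and its derivatives, had relative differences of 0.66, 0.29 and 1.06. On scaled summed reads all 3 were higher in 3D without overlap, with WT1 at 453, 567 and 546 CPM in 2D and 595, 697 and 812 in 3D, while the TBX18 CPM overlapped, against 17.8% of all genes higher without overlap by sums and 1.17% lower. TCF21 stood at 622, 643 and 510.4 CPM in 2D and at 726, 955 and 756 in 3D. PRRX1, a mesenchymal homeobox factor, lay at -1.34 by the mean of guides and at 759.8, 622 and 566 CPM in 2D against 516, 429 and 469 in 3D. PRRX1_2 held 56.5% of the 3D reads and 49.8% of the 2D reads of its gene, and 3 PRRX1 guides were under 10 reads in each thin library. Without PRRX1_2 the sums were 326 ± 13.3 CPM in 2D and 205 ± 69.1 CPM in 3D (SD, n = 3 each). For WT1 and TBX18 the sums in 3D and 2D lay close without the most abundant guide of each. Without WT1_2, which held 49.1% of the 3D reads, WT1 stood at 365 ± 72.8 CPM (SD, n = 3) in 2D and 357 ± 52.5 CPM (SD, n = 3) in 3D. TBX18_1 held 30.3% of the 3D reads and 20.9% of the 2D reads. Without TBX18_1 the sums of TBX18 were 442 ± 34.9 CPM in 2D and 450.02 ± 106 CPM in 3D (SD, n = 3 each). None of these 4 genes was past the threshold (limma, adjusted p from 0.432 to 0.944 over both summaries). TEAD1, the Hippo effector, had a relative difference of 0.30 and changed sign under some alternatives.

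Genes of pluripotency, hypoxia, growth and survival did not pass. POU5F1 lay at 0.998 relative to the median gene, but at 771, 668 and 933 CPM in 2D and 816, 955 and 719.8 in 3D, and at -0.12 without its strongest guide. NANOG and SOX2 lay at -0.94 and -0.48, with 5 and 4 of 7 guides under 10 reads in 3D replicate 3, and at 0.25 and 0.21 without the thin libraries. HIF1A and its partner ARNT lay at 0.30 and -0.56, and MYC at -0.63, and of these ARNT and MYC were lower without overlap by the mean of guides, as 14.6% of all genes were. FOXO1, a factor held back by insulin signalling, was abundant in both systems at 2283, 2476 and 1279 CPM in 2D and 2132, 3702 and 1620.0 in 3D, and its relative difference of 0.63 did not pass (limma, adjusted p = 0.958).

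As no gene passed by the mean of guides, none of the 15 gene lists could hold one. The counts without overlap stand beside 1.48% of all genes tested higher and 14.6% lower, and the medians, not centred here, beside -0.59 over all genes. By sums, 17.8% of all genes were higher and 1.17% lower without overlap. Mesendoderm and cardiac mesoderm factors had a median of -1.17, with 0 of 17 higher and 6 lower without overlap (EOMES, MESP1, LHX1, FOXC1, CDX1 and OTX2). On summed reads the list's median was 0.10 against 0.36 over all genes, with 2 higher (MIXL1 and SP5) and 2 lower (EOMES and FOXC1). Pluripotency factors had a median of -0.98 with 0 higher and 4 lower of 14, and by sums 1 higher and 0 lower. WNT, NODAL and BMP effectors had -0.96 with SMAD5 higher and SMAD1 and FOXH1 lower of 10 tested, as CTNNB1, SMAD2, SMAD6 and SMAD7 had no guides. By sums 2 of the 10 were higher and 1 lower. Endoderm factors had -0.83 with 0 higher and 4 lower of 13 (FOXA2, FOXA3, HHEX and PROX1). Their median on summed reads was 0.18, with 0 in either direction.

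Cardiac factors had a median of -0.76, with GATA4 and TBX20 higher and TBX5 and SHOX2 lower of 22, and by sums 4 higher and 0 lower. Retinoic acid and second heart field factors had -0.71 with 0 and 4 of 14, and HOX genes -0.71 with 0 and 10 of 39. By sums the counts higher and lower were 2 and 1 for the first list and 3 and 1 for HOX genes. Epicardial, fibroblast and smooth muscle factors had -0.56 with 0 and 3 of 21, and on summed reads 0.49 with 6 higher and 0 lower, beside 17.8% of all genes higher and 1.17% lower on that summary. Endothelial and blood factors had -0.55 with 1 higher (ETS1) and 2 lower of 18, and neural and skeletal muscle factors -0.71 with 0 and 1 of 15. By sums the counts were 4 and 0, and 3 and 0, in that order. Hippo and mechanical response factors, the list that holds ARHGAP35, had -0.35 with 0 and 3 of 18. On summed reads this list had 4 higher (TEAD3, EGR1, FOSL2 and ARHGAP35) and 0 lower. Hypoxia and metabolic factors had -0.85 with 0 and 6 of 19, stress and survival factors -0.55 with 0 and 2 of 19, and cell cycle and growth-essential factors -0.51 with SP1 higher and 4 lower of 25. By sums the hypoxia list had 1 higher and 0 lower, the stress list 3 and 0, and the cell cycle list 7 and 1. The 491 ZNF genes tested had -0.57, with 9 higher and 69 lower, shares near those of all genes. By sums 95 of them were higher and 2 lower.

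**Figure D5:**
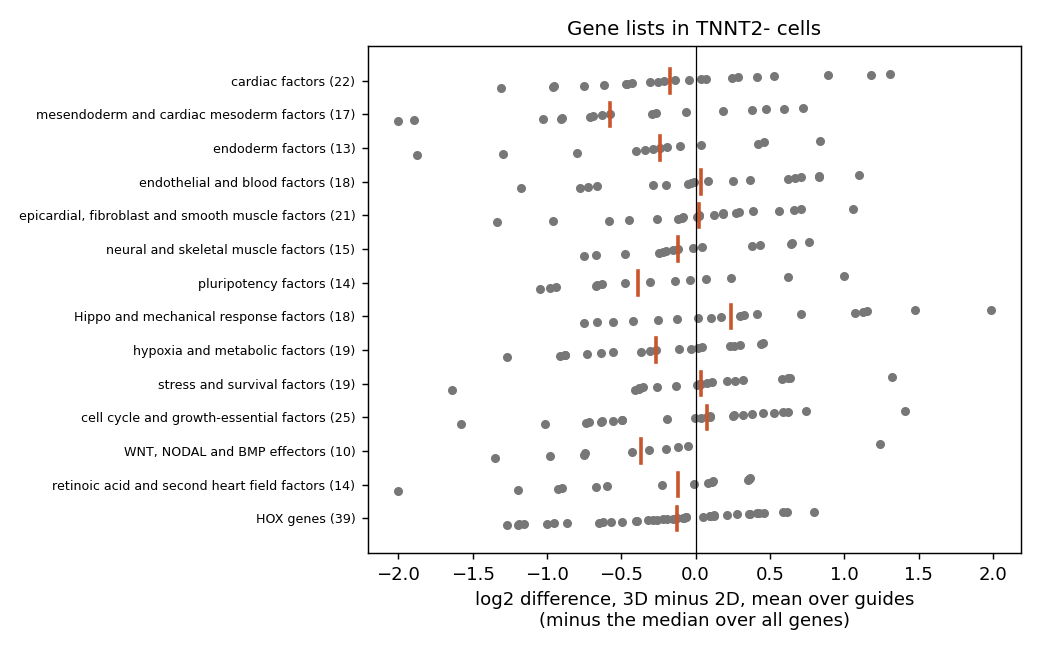
Log2 difference of 3D from 2D TNNT2- cells by the mean of guides, minus the median over all genes (x axis), for each member (grey points) of 14 gene lists, with the list median as an orange bar and the number tested in brackets. Mesendoderm factors have the lowest median and the Hippo and mechanical response list the highest, and no point passed the test.

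The difference between systems was not shown to depend on the sorted fraction for any gene. In a test over the 12 day 25 libraries of the 3D against 2D difference in TNNT2- cells minus that in TNNT2+ cells, 0 of 1621 genes passed (0%) by limma on either summary, with a smallest adjusted p of 0.997. The unadjusted p was under 0.05 for 0 genes higher (0%) and 20 lower (1.23%) in TNNT2- cells by means of guides, and 7 (0.432%) and 9 (0.555%) by sums. Both fractions came from the same cultures, and with the replicate number as a block the counts by means of guides were 9 and 36, with differentiation as a random block 18 and 43, and 0 genes passed in either. For FOXH1 the difference of differences was -0.62 by means and -0.79 by sums (limma, adjusted p = 0.997 for both). For ARHGAP35 it was 1.38 and 0.86, and for CAMTA2 0.85 and 0.82, with the same adjusted p. For MEF2C it was 2.44 and 3.08, where 3D TNNT2+ replicate 3 held 1.18 CPM, in a library with 43.6% of guides under 10 reads, against 473 to 593 in the other 3D TNNT2+ replicates. The gene differences in both fractions correlated at r = 0.107 by means and 0.0886 by sums across 1621 genes, which come from the same 6 differentiations and are not independent replicates.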

How the data were processed

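The authors deposited 1 table per system, with a normalized signal per guide and library. Every deposited signal value was a whole multiple of its column's smallest value above 0, within 0.001 and for 100% of values, so reads were recovered by division. Guide analysis used MAGeCK and build hg38, per the submitters' processing notes, with version and settings not given in the sources used here. PCR reads carry no molecular identifiers. Recovered reads of the libraries compared were scaled together by median ratios, guides with a mean of at least 10 scaled reads were kept, and each gene with at least 3 such guides got the mean of log2(scaled reads + 10) over its guides in each library. This understates changes of low guides. Groups of 3 libraries were fitted with limma (version 3.58.1 in R 4.3.3) with a mean-variance trend, and Benjamini-Hochberg adjustment ran over all genes or guides. Alternatives used other scalings, filters, pseudocounts, summed reads, edgeR (version 4.0.16) and DESeq2 (version 1.42.0) on recovered reads, a replicate block and libraries left out. The summed reads were followed further after their calls were seen. Genes named were the 10 leading in each direction, the 5 leading guides in each direction, leaders of each list, those of largest size without overlap, and a fixed set. The text gives a selection of them, and some are not reported here. The members and lists were chosen with earlier results of these data known. Of 1633 target names, 1612 matched the GRCh38.p14 gene table. Scripts were tested on simulated reads. Guide sequences were not used here. The replicates are separate differentiations, per the labels' protocols.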

Additional observations from a re-analysis of the deposited data

How the results depend on the processing

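Of 42 named genes, 32 kept the sign of their value relative to the median gene under every alternative run, and 24 passed under at least 1. Of these only ARHGAP35, CAMTA2, EOMES, FOXA2 and FOXH1 passed under more than 1. Array weights alone called 30 genes higher and 394 lower of all 1621 tested, and many named genes were chosen for a small p. The cause of each change below was not tested. Without the thin libraries 1 3D library remained, so calls of that fit hold no spread between 3D differentiations. By means of guides, the count of genes higher in 3D (0) became 30 with array weights, 1 without the thin libraries (ARHGAP35), 2 with summed reads and 13 with DESeq2, and the count lower (0) became 394 with array weights, 3 with DESeq2, and 1, FOXH1, with the library total, with control guides or without the thin libraries. Leaving out 1 library gave 0 to 1 in each direction. For summed reads the count higher (2) was 0 with the library total, 410 with array weights, 6 without the thin libraries, 1 (CAMTA2) centred on the median gene, 0 with edgeR and 13 with DESeq2. The count lower (0) was 1 with the library total, with control guides or centred, 50 with array weights, 2 without the thin libraries and 3 with DESeq2. Leaving out 1 library gave 0 to 19 higher and 0 to 2 lower. It gave 0 higher without 3D replicate 2 or any 1 of the 2D libraries, 19 without 3D replicate 1 and 6 without 3D replicate 3. Single guides higher (2) became 0 with the library total, TMM factors, control guides, a pseudocount of 1, no trend, edgeR, the spread of all 14 libraries or without the thin libraries, 1 with no filter, 19 with array weights and 52 with DESeq2. They ranged from 0 to 8 with 1 library left out. Single guides lower (0) became 2 with no filter.

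The replicate numbers were not taken to pair 2D with 3D libraries. Residual correlations were 0.0238, 0.0169 and 0.0122 for the same numbers, although every library correlated best with its own number. These values do not settle whether the numbers pair. With the replicate block, 1 gene (FOXH1, adjusted p = 0.00395 by limma) was lower and 0 higher by means of guides, 4 genes (ARHGAP35, CAMTA2, GLI3 and SREBF2) were higher by summed reads, and 11 guides were higher and 1 lower.

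Values relative to the median gene changed sign for 10 genes, none of them past the threshold there. Without the thin libraries, HAND1 lay at 0.12, ISL1 at -0.32, HIF1A at -0.029, NANOG at 0.25 and SOX2 at 0.21. With summed reads, NKX2-5 lay at -0.028, ISL1 at -0.0056 and HIF1A at -0.18. With edgeR and DESeq2, NKX2-5 lay at -0.053 and -0.054, and HIF1A at -0.20 in both. Without the strongest guide, ZNF888 lay at 0.26, HAND1 at 0.0046 and POU5F1 at -0.12. With the median of guides, NKX2-5 lay at -0.16 and TBX18 at -0.37, and with array weights TEAD1 at -0.14 and SOX2 at 0.18. With 1 library left out, the ranges were -0.28 to 0.0014 for HAND1, -0.087 to 0.58 for ISL1, -0.12 to 0.79 for TBX18, -0.0079 to 0.56 for TEAD1, -0.024 to 0.48 for HIF1A and -0.88 to 0.29 for SOX2. Without the thin libraries the share of guides under 10 reads differed by -0.141 percentage points. Reads per guide limit what can be said of rare guides, since a lost guide and a guide at a few reads differ little.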
